A study of Mus musculus with 8 samples.

Results

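Transforming growth factor beta (TGF-beta) is a secreted cytokine whose signal runs from the cell surface to the chromatin through a short chain of proteins. The 10 genes described here encode 2 ligands (Tgfb1, Tgfb2), the 2 receptor kinases (Tgfbr1, Tgfbr2), the Smads that carry the signal or block it (Smad2, Smad3, Smad7) and 3 nuclear repressors of Smad-driven transcription (Ski, Skil, Tgif1). They were taken as a named set, and every peak within 10 kb of their gene bodies on GRCm38 was used. Merged over libraries, these peaks made 37 regions of 40784 in all. The 10 genes are 10 of 49943 in the annotation.

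As background, an active ligand binds the type II receptor Tgfbr2, which then phosphorylates the type I receptor Tgfbr1. Tgfbr1 phosphorylates Smad2 and Smad3, which enter the nucleus with Smad4 and bind DNA. Smad7 blocks the receptor and is itself a target of the pathway, so it closes a feedback loop. Ski and Skil (also called SnoN) bind Smads on chromatin and recruit corepressors, and Tgif1 is a homeodomain protein that does likewise. In the brain TGF-beta is known for keeping microglia in their resting identity, and gliomas are known to secrete it.

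Open chromatin was profiled with ATAC-seq (Tn5 transposase cuts and tags accessible DNA) in BV2 cells, an immortalised mouse microglial line. The 4 groups were BV2 grown alone in normoxia (21% O2), alone in hypoxia (below 0.1% O2), with GL261 mouse glioma cells in normoxia, and with GL261 in hypoxia, each with 2 replicates and 16 h of exposure. Cells were fixed with formaldehyde in their own oxygen level and then sorted as CD45+ or GFP+; the labels name no deletion or drug in any group and do not say which cells carried GFP. The labels call the 2 replicates of a group biological, and whether they were grown on separate days is not stated, so p-values measure only the spread between these samples.

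Every library has its own peak list, of 9910 to 29658 peaks. The 2 lists of normoxic monoculture, with 13333 and 9910 peaks, stand apart as the shortest, and the other 6 hold at least 21633. Background coverage, worked out from the fold and −log10 p that the authors deposited for every peak, was 0.758 and 1.03 fragments per position in normoxic monoculture and 1.07 to 1.45 elsewhere. At that background a summit of 6 to 8 fragments passed the authors' threshold, a −log10 q just above 2, so a region without a peak is one not detected at this depth and not one shown to be closed. Of 12 microglia and macrophage marker genes, among them Ptprc, which encodes the sorted antigen CD45, 7 to 8 had a peak within 10 kb in normoxic monoculture and 10 to 12 in the other libraries, at 11 to 14 and 22 to 36 of their 45 regions. Of all regions, 30.8% and 23.1% had a peak in normoxic monoculture and 51.5% to 70.7% in the other libraries, so the marker counts also follow list length. Peaks were ranked within their own list by −log10 p, and the rank is given as a percentile, with 100 the strongest. Ranks from lists of different length do not measure a change, so percentiles are given as a description.

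The promoters below show the start sites of the ligands, receptors and Smad3, so that sites with a peak in every library can be read beside sites with few or none. Each runs from 250 bases before to 50 bases after a start site (RefSeq, GRCm38.p6) and is printed in the direction of transcription. Such promoters were held in the table for 7 of the 10 genes. Capitals mark matches, on either strand, to the HIF core ACGTG or the Smad box CAGAC. The palindrome GTCTAGAC, the AP-1 motif TGANTCA and the PU.1 motif GAGGAAGT were searched too and matched none of the 7 promoters. Tgfb1 and Tgfb2 encode ligands, Tgfbr1 and Tgfbr2 the receptors, and Smad3 a signal carrier. Tgfb1 lies at chr7:25686752-25687051 (plus strand), Tgfb2 at chr1:186705940-186706239 (minus), Tgfbr1 at chr4:47352972-47353271 (plus), Tgfbr2 at chr9:116175314-116175613 (minus) and Smad3 at chr9:63757945-63758244 (minus).
Tgfb1: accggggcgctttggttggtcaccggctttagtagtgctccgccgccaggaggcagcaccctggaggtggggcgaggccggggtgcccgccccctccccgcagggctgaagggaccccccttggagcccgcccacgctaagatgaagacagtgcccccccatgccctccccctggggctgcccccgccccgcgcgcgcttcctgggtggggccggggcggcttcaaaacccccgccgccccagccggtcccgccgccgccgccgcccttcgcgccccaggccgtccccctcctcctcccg
Tgfb2: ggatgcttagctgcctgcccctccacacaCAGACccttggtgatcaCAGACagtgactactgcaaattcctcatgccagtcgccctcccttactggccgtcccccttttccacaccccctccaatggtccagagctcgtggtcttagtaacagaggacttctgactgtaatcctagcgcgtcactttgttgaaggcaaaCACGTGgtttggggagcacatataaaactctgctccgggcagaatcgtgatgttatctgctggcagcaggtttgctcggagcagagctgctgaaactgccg
Tgfbr1: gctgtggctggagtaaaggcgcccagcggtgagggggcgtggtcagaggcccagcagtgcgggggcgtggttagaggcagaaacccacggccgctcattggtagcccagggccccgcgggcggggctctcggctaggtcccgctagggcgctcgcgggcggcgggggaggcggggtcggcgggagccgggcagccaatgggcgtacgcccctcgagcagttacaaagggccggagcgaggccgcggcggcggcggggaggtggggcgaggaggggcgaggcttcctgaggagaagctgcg
Tgfbr2: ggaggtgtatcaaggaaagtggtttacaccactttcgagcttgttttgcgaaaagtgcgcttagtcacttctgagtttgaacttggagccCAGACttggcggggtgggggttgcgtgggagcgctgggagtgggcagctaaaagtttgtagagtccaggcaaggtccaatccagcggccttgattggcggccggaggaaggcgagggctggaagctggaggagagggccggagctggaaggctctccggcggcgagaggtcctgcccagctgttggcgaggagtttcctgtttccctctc
Smad3: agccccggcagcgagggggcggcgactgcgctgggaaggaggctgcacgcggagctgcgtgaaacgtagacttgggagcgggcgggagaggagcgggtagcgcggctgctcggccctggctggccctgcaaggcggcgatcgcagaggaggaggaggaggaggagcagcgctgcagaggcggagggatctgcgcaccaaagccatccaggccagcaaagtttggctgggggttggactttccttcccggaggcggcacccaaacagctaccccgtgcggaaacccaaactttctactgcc

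These promoters differed in base composition. Tgfbr1 held 34 CpG and Tgfb1 30, Smad3 25, Tgfbr2 15 and Tgfb2 10, against a median of 13 over 17492 promoters of protein-coding genes. The Ski promoter, not printed, held 59 CpG and 85.3% G and C, more CpG than 99.9% of those promoters. The HIF core was found in Tgfb2 alone, with overlapping matches on both strands starting 50 and 51 bases before the start site, and in 20.7% of all promoters. The Smad box was found in Tgfb2 (2 matches), Tgfbr2 and Tgif1, and in 48.7% of all promoters. Matches to the palindrome, the AP-1 motif and the PU.1 motif were present in 0.212%, 7.08% and 3.17% of all promoters. A match describes letters in this window and is not evidence of binding.

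Detection at these start sites ranged from a peak in every library to a peak in none. The Tgfbr2 window had a peak in all 8 libraries, as did 16.5% of all promoter windows. The Tgfbr1 window had one in 6 libraries and that of Smad3 in 5. The Tgfb1 window had a peak in 1 library, and those of Tgfb2 and Ski in none, as was true of 53.3% of all windows. For Tgif1 the first listed window had a peak in 2 libraries, and the windows of its further start sites in 5, 2, 0 and 0. With hypoxia in monoculture, the Tgfbr1 and Smad3 windows went from no peak in either normoxic library to a peak in both hypoxic ones, 2 of 7 windows, against 5.77% of all windows. The Smad3 call rests on weak peaks: the region over its start site was called in 1 hypoxic monoculture library after thinning to equal background coverage and in 0 in lists of equal number.

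Of the 37 regions, 27 overlapped the body of their gene and 10 lay outside it. Of the 27, 8 covered an end of their own gene and 19 lay inside a gene body away from its ends, where the annotation used gives no exons or introns. A peak in all 8 libraries was found at 7 regions (18.9%), against 15.6% of all regions, and these lay at 4 genes, Tgfbr2, Smad2, Ski and Skil. A peak in a single library was found at 7 regions, against 26.7% of all. Neither normoxic monoculture library had a peak at 20 regions (54.1%), against 63.8% of all regions. The shares in all 8 libraries and in none of normoxic monoculture lie near the background of the whole data set.

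**Figure D1:**
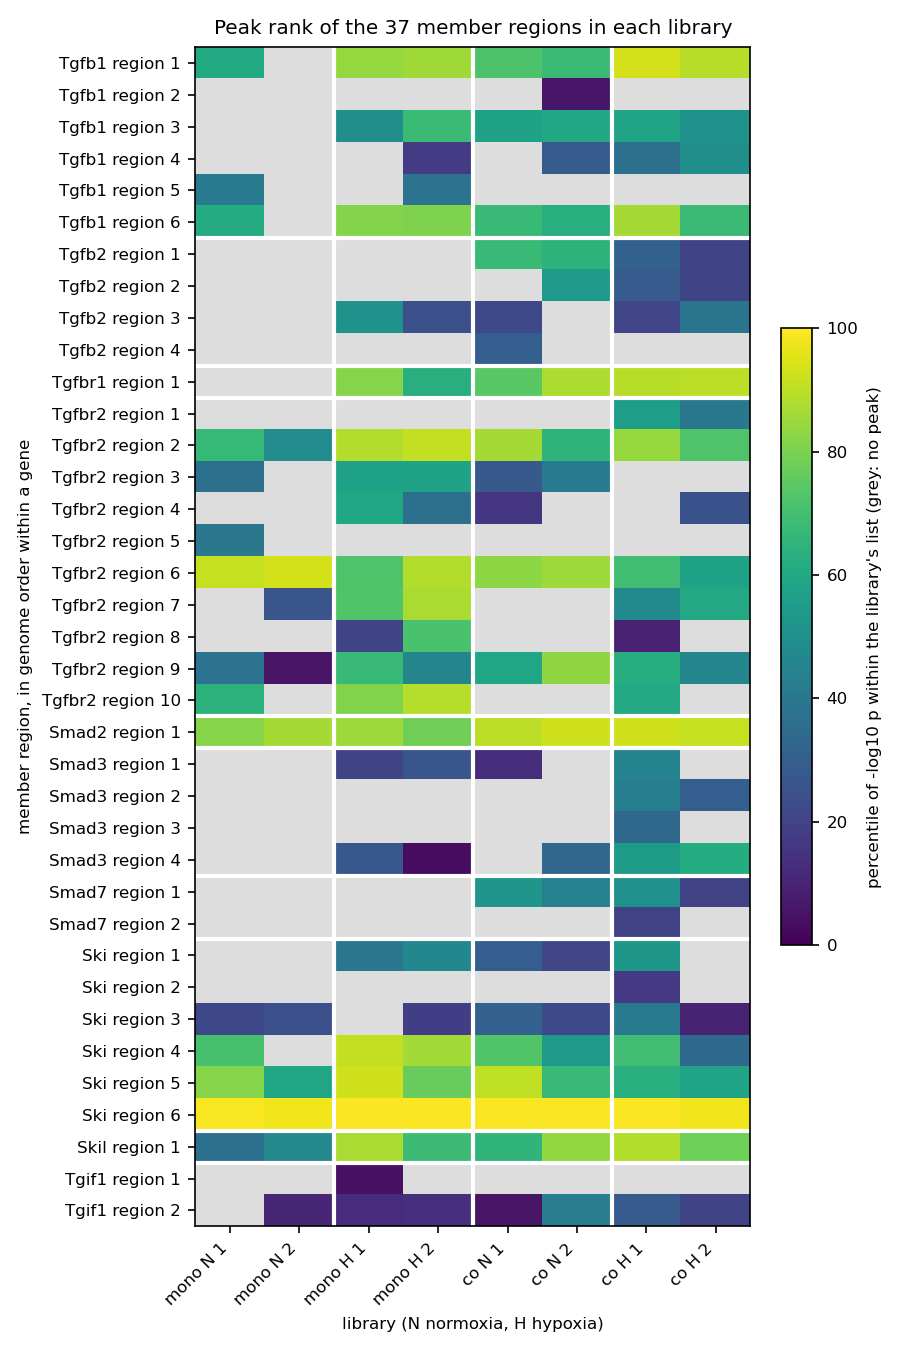
Within-list percentile of −log10 p of the highest peak at each of the 37 member regions (rows, in genome order within a gene) in each of the 8 libraries (columns). Mono is monoculture, co is co-culture, N is normoxia, H is hypoxia, and grey is no peak. Ski region 6 stays at 97.7 or above in every library, while Tgfb2 region 1 and Smad7 region 1 are grey in all 4 monoculture libraries and coloured in all 4 co-culture libraries.

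The number of member peaks followed the length of the lists. Normoxic monoculture had 15 and 10 member peaks, hypoxic monoculture 23 and 25, normoxic co-culture 23 and 24, and hypoxic co-culture 30 and 24. The means were 12.5 ± 3.54, 24.0 ± 1.41, 23.5 ± 0.707 and 27.0 ± 4.24 (SD, n = 2 each). Normoxic monoculture did not overlap any other group. Per 10000 peaks of a list, however, member peaks numbered 9.44 to 11.3 in all libraries, with normoxic monoculture at 11.3 and 10.1. In lists cut to an equal number of 9910 peaks, normoxic monoculture had 14 and 10 member regions and the other 6 libraries 9 to 14.

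A gained region is one called in each hypoxic (or co-cultured) library of a comparison and in no normoxic (or monoculture) one, and a lost region is the reverse. With hypoxia in monoculture 8 member regions were gained (21.6%) and 0 lost, against 17.7% and 0.179% of all regions. With hypoxia in co-culture 3 were gained (8.11%) and 1 lost (2.70%), against 6.09% and 2.05%. With co-culture in normoxia 5 were gained (13.5%) and 0 lost, against 12.5% and 0.181%. With co-culture in hypoxia 5 were gained (13.5%) and 1 lost, against 5.83% and 3.76%. With 2 libraries against 2 the smallest two-sided exact p is 0.333, so these counts carry no test. Most of these shares lie near the background. The last gain is above it, and it rests on 5 regions at Tgfb2, Smad7, Tgfbr2 and Smad3. In lists of equal number hypoxia gained 1 member region in monoculture (Tgfbr1 region 1). In co-culture it gained 0 and lost 3 (Tgfb1 region 3, Tgfb2 region 1 and Tgfbr2 region 9). Co-culture then gained 3 in normoxia (Tgfb1 region 3, Tgfb2 region 1 and Tgfbr1 region 1). In hypoxia it gained 0 and lost 1 (Tgfbr2 region 10). The other gains named for single regions were therefore not called in those lists. Marker regions were counted in the same comparisons. Hypoxia in monoculture gained 28.9% of 45 microglia marker regions, and co-culture in normoxia 20%, both above the member shares. Hypoxia in co-culture gained 4.44% of them and co-culture in hypoxia 0. Of 17 glioma and glial marker regions, co-culture gained 11.8% in normoxia, against 12.5% of all regions, and 17.6% in hypoxia, against 5.83%. Hypoxia gained 5.88% of them in monoculture and 0 in co-culture. The part of either in the member gains was not tested.

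Few regions divided the 8 libraries cleanly, 4 against 4. Hypoxia in both cultures gained 0 member regions and lost 0, against 2.08% and 0.0196% of all regions. Co-culture at both oxygen levels gained 2 (5.41%), Tgfb2 region 1 and Smad7 region 1, and lost 0, against 1.98% and 0.027%. These counts are given beside the share of all regions and were not tested. In lists of equal number neither region was called in all 4 co-culture libraries. The counts under the other ways of making the lists comparable are given in the closing section.

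**Figure D2:**
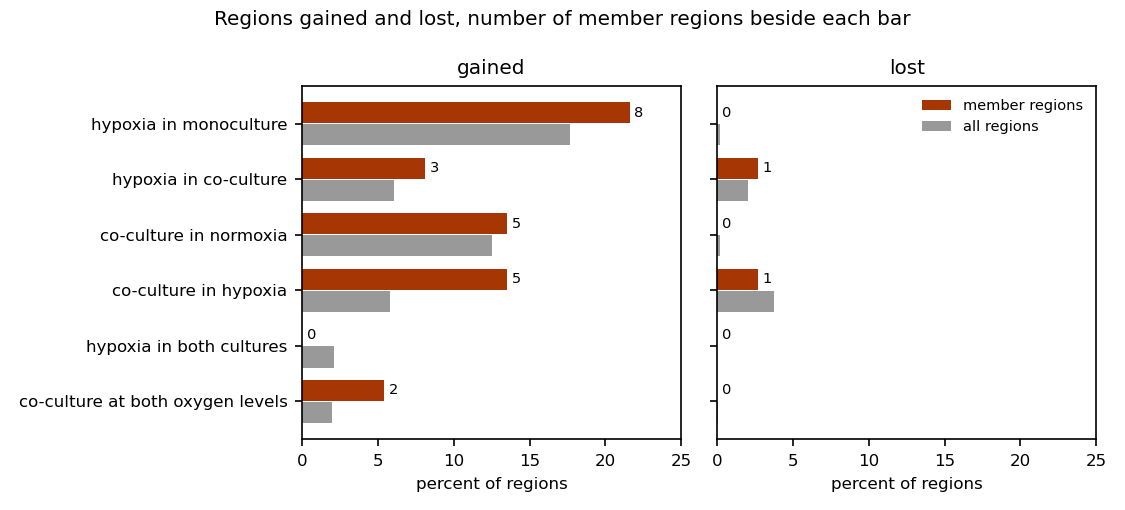
Percent of regions gained (left) and lost (right) in each comparison (rows), for the 37 member regions and for all 40784 regions. Numbers beside the bars count member regions, and the member bar exceeds the background bar by more than a factor of 2 for co-culture in hypoxia (13.5% against 5.83%) and for co-culture at both oxygen levels (5.41% against 1.98%), on 5 and 2 regions.

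Tgfb1, the ligand made by most immune cells, had 6 regions, of which those with the highest percentiles overlap neighbouring genes. Region 1 (chr7:25680220-25681239) covers the start site of B9d2, and region 6 (chr7:25711614-25712221) lies inside Ccdc97. Each had a peak in 7 libraries, all but the second of normoxic monoculture, with percentiles from 60.8 to 93.7 and from 61.3 to 86.4. They lie within 10 kb of Tgfb1, and accessibility there cannot be assigned to one gene.

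Within Tgfb1 itself the start site had a peak in 1 library, the second of normoxic co-culture, at percentile 6.16. Region 3 (chr7:25689094-25689807), 2357 bp downstream of the start site, was the accessible place of the gene body. It had no peak in either normoxic monoculture library, percentiles of 49.6 and 68.2 in hypoxic monoculture, 57.6 and 59.8 in normoxic co-culture, and 58.3 and 51.4 in hypoxic co-culture. Estimated fragments at its summit were 27 to 39. The normoxic monoculture pair alone lacked it, a pattern of 2 member regions (5.41%) and of 4.97% of all regions. In lists of equal number it was called in 1 library of hypoxic monoculture and both of normoxic co-culture but in none of hypoxic co-culture, and thinned to equal background coverage in all 6.

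Beyond the far end of Tgfb1, region 4 (chr7:25705746-25706223) had a peak in the second library of hypoxic monoculture (17.4), the second of normoxic co-culture (29.1) and both of hypoxic co-culture (36.7 and 49.9). Region 5, further on, had one in the first library of normoxic monoculture (41.1) and the second of hypoxic monoculture (37.9). Neither was gained or lost in any of the comparisons run.

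Tgfb2 encodes the isoform best known from glia and from glioma. It had 4 regions, all inside its 86911 bp gene body and none at its start site. Region 1 (chr1:186627281-186628034) lies 4921 bp from the 3′ edge of the gene and 78.3 kb from the start site. It had no peak in the 4 monoculture libraries, percentiles of 67.2 and 64.6 in normoxic co-culture, and 31.2 and 20.4 in hypoxic co-culture. Estimated summit fragments were 27 and 32 in normoxic and 19 and 13 in hypoxic co-culture. All 4 co-culture libraries thus had it and no monoculture library did. Lists of equal number kept it in both normoxic co-culture libraries and in no other.

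Region 2 of Tgfb2 (chr1:186654998-186655479) had a peak in the second library of normoxic co-culture (53.5) and in both of hypoxic co-culture (28.8 and 20.5). Again no monoculture library had it. Region 3 (chr1:186675412-186676541) had a peak in both hypoxic monoculture libraries (50.9 and 24.3), the first of normoxic co-culture (22.1) and both of hypoxic co-culture (20.8 and 38.5). It was gained with hypoxia in monoculture. Region 4 had a peak only in the first library of normoxic co-culture, at 29.9. In peaks per library, Tgfb2 had 0 and 0 in normoxic monoculture, 1 and 1 in hypoxic monoculture, 3 and 2 in normoxic co-culture, and 3 and 3 in hypoxic co-culture.

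Tgfbr1, the type I receptor kinase that phosphorylates Smad2 and Smad3, had a single region in 61705 bp of gene body and 10 kb on either side. It covers the start site (chr4:47352580-47353528), also overlaps the gene Gm32435, and holds the CpG-rich promoter printed above. It had no peak in normoxic monoculture, percentiles of 81.7 and 62.8 in hypoxic monoculture, 74.3 and 87.5 in normoxic co-culture, and 89.3 and 90.0 in hypoxic co-culture. Estimated summit fragments were 46 and 36, 35 and 58, and 77 and 72 in the same order. The 6 libraries with a peak ranked it well above the middle of their lists, while neither list of normoxic monoculture held it. It kept this pattern of 6 libraries in lists of equal number (percentiles from 1.16 to 78.3) and in lists thinned to equal background coverage.

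Tgfbr2, the receptor that binds the ligand first, had the most regions of the set, 10. A peak was found in every library at 3 of the 10. Region 9 (chr9:116174540-116175985) covers the start site, with percentiles of 38.1 and 5.16 in normoxic monoculture, 67.5 and 45.4 in hypoxic monoculture, 59.1 and 83.6 in normoxic co-culture, and 62.3 and 45.4 in hypoxic co-culture. The start site of the gene Gm40582 lies in it too. Normoxic monoculture, with the shortest lists, lay below the other 6 libraries, whose groups overlapped. In lists of equal number the region was called in 5 libraries, none of them hypoxic co-culture, and that order did not hold.

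Region 6 of Tgfbr2 (chr9:116145002-116145803), 29.9 kb into the gene, had the opposite order. Its percentiles were 91.3 and 93.5 in normoxic monoculture, 72.3 and 88.6 in hypoxic monoculture, 83.1 and 85.4 in normoxic co-culture, and 69.4 and 57.4 in hypoxic co-culture. The normoxic monoculture lists, the shortest, thus ranked it highest, and in lists of equal number it ranged from 7.09 to 93.5 with a peak in all 8. Region 2 (chr9:116084033-116085434), 2261 bp beyond the gene's far edge, had a peak in all 8 as well, from 48.1 to 90.7.

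The other 7 Tgfbr2 regions had a peak in some libraries only, and several of them divided the replicates of a group. Region 7 (chr9:116156443-116156950), 18.6 kb into the gene, had a peak in the second library of normoxic monoculture (26.4), both of hypoxic monoculture (72.9 and 87.3), neither of normoxic co-culture and both of hypoxic co-culture (47.5 and 60.4). All 4 hypoxic libraries and 1 normoxic library therefore had it, and it was gained with hypoxia in co-culture. Region 10 (chr9:116178204-116178664), 2987 bp upstream of the start site and over an end of Gm40582, had a peak in the first library of normoxic monoculture (64.1), both of hypoxic monoculture (81.0 and 89.0) and the first of hypoxic co-culture (60.3). Normoxic co-culture had none at region 7, 8 or 10.

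Region 3 of Tgfbr2 (chr9:116098896-116099582) was the only member region lost in any comparison among those run on the lists as deposited. It had percentiles of 36.9 in the first library of normoxic monoculture, 57.1 and 57.6 in hypoxic monoculture and 27.8 and 41.0 in normoxic co-culture, and no peak in either library of hypoxic co-culture. It was therefore lost with hypoxia in co-culture and with co-culture in hypoxia. In lists of equal number it was called in 1 normoxic monoculture library and in no other, so neither loss was called there. Region 1 (chr9:116077444-116077785) showed the reverse, with a peak in hypoxic co-culture alone (56.0 and 39.9). Region 4 was gained with hypoxia in monoculture (59.4 and 36.8) and had a peak in the first library of normoxic co-culture (15.8) and the second of hypoxic co-culture (25). Region 8 was gained there too (20.6 and 71.2) and had a peak in the first library of hypoxic co-culture (9.05). Each was called in 1 hypoxic monoculture library and in no other in lists of equal number. Region 5 had a peak only in the first library of normoxic monoculture (39.5).

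Smad2 and Smad3 carry the same signal, and their loci differed. Smad2 had 1 region (chr18:76240935-76241931), at the lower-coordinate edge of the gene, with a peak in all 8 libraries. Its percentiles were 81.7 and 86.4 in normoxic monoculture, 85.5 and 78.5 in hypoxic monoculture, 90.1 and 92.9 in normoxic co-culture, and 92.9 and 91.2 in hypoxic co-culture. In the lists as deposited, all 4 co-culture libraries ranked it above all 4 monoculture libraries. That order did not hold in lists of equal number, where it was called in all 8 at percentiles of 42.7 to 86.4 and the highest value was that of the second library of normoxic monoculture.

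Smad3 had 4 regions and no peak in either normoxic monoculture library. Region 4 (chr9:63757794-63758453) covers its start site and had percentiles of 27.2 and 3.42 in hypoxic monoculture, 32.9 in the second library of normoxic co-culture, and 54.6 and 61.9 in hypoxic co-culture. Its weakest call, in hypoxic monoculture, rested on an estimated 9 fragments at the summit, near the 8 needed there, and that call was lost when lists were thinned to equal background coverage. Region 1 (chr9:63677712-63678397), 79.7 kb into the gene, had a peak in both hypoxic monoculture libraries (20.4 and 26.9), the first of normoxic co-culture (13.0) and the first of hypoxic co-culture (45.1). Region 2 (chr9:63706221-63706685) had a peak in hypoxic co-culture alone (42.8 and 29.8), and region 3 in its first library alone (33.8). Per library Smad3 had 0 and 0 peaks in normoxic monoculture, 2 and 2 in hypoxic monoculture, 1 and 1 in normoxic co-culture, and 4 and 2 in hypoxic co-culture. Within each culture, both hypoxic libraries exceeded both normoxic ones, an order that puts a gene among the 4.95% of all genes at the smallest exact p for oxygen. The oxygen difference was 0.25 in lists of equal number.

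Smad7, the inhibitor induced by the pathway it blocks, had a called peak at its lower-coordinate edge in the co-culture lists as deposited and in no monoculture list. Region 1 (chr18:75366456-75367634) covers the lower-coordinate edge of Smad7 and an end of the gene Gm20544. No monoculture library had a peak there, and percentiles were 52.3 and 43.6 in normoxic co-culture and 50.1 and 19.9 in hypoxic co-culture. Estimated summit fragments were 34 and 35, and 44 and 26. Thinned to equal background coverage, it was still called in all 4 co-culture libraries and no other, and in lists of equal number it was called in none. Region 2 had a peak in the first library of hypoxic co-culture alone (19.4).

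Among the nuclear repressors, Ski had the strongest region of the set. Region 6 (chr4:155223041-155223820) lies 795 bp upstream of the start site and had percentiles of 99.2 and 98.0 in normoxic monoculture, 99.3 and 99.4 in hypoxic monoculture, 99.5 and 99.2 in normoxic co-culture, and 99.3 and 97.7 in hypoxic co-culture. Estimated summit fragments ran from 79 to 209. It stands among the top peaks of every list, and in lists of equal number it stayed between 94.9 and 98.9. The 300 bases around the start site, with no peak in any library, are the CpG-dense sequence described above.

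Inside Ski, region 5 (chr4:155200736-155201615), 21.5 kb from the start site, had a peak in all 8 libraries, from 58.3 to 92.6. Region 4 (chr4:155187153-155187626) had one in 7, all but the second of normoxic monoculture, from 34.2 to 90.9, and region 3 in 7, all but the first of hypoxic monoculture, from 9.78 to 41.2. Region 1 (chr4:155162720-155163437) had no peak in normoxic monoculture, 39.2 and 46.6 in hypoxic monoculture, 29.8 and 20.8 in normoxic co-culture, and 52.8 in the first library of hypoxic co-culture. It was gained with hypoxia in monoculture and with co-culture in normoxia, and was called in 0 libraries in lists of equal number. Region 2 had a peak in the first library of hypoxic co-culture alone (16.6).

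Skil, the close relative of Ski, had 1 region (chr3:31094382-31095121), at the lower-coordinate edge of the gene, with a peak in all 8 libraries. Its percentiles were 37.1 and 47.1 in normoxic monoculture, 87.3 and 68.4 in hypoxic monoculture, 65.4 and 83.9 in normoxic co-culture, and 88.6 and 77.8 in hypoxic co-culture. The normoxic monoculture pair lay below the other 6 libraries in these lists, of which its own are the shortest. In lists of equal number the region was called in all 8 libraries, from 15.4 to 68.7, and that order did not hold: the first library of normoxic monoculture stayed lowest, at 15.4, and the second was at 47.1.

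Tgif1 had 2 regions. Region 2 (chr17:70851157-70853542), the widest of the set at 2386 bp, covers several of its start sites and one of the gene Gm36856. It had a peak in 7 libraries, with percentiles of 10.9 in the second library of normoxic monoculture, 12.5 and 13.9 in hypoxic monoculture, 5.39 and 42.4 in normoxic co-culture, and 28.5 and 20.7 in hypoxic co-culture. All lie in the lower part of their lists, and the groups overlap. Region 1 had a peak in the first library of hypoxic monoculture alone (4.60).

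**Figure D3:**
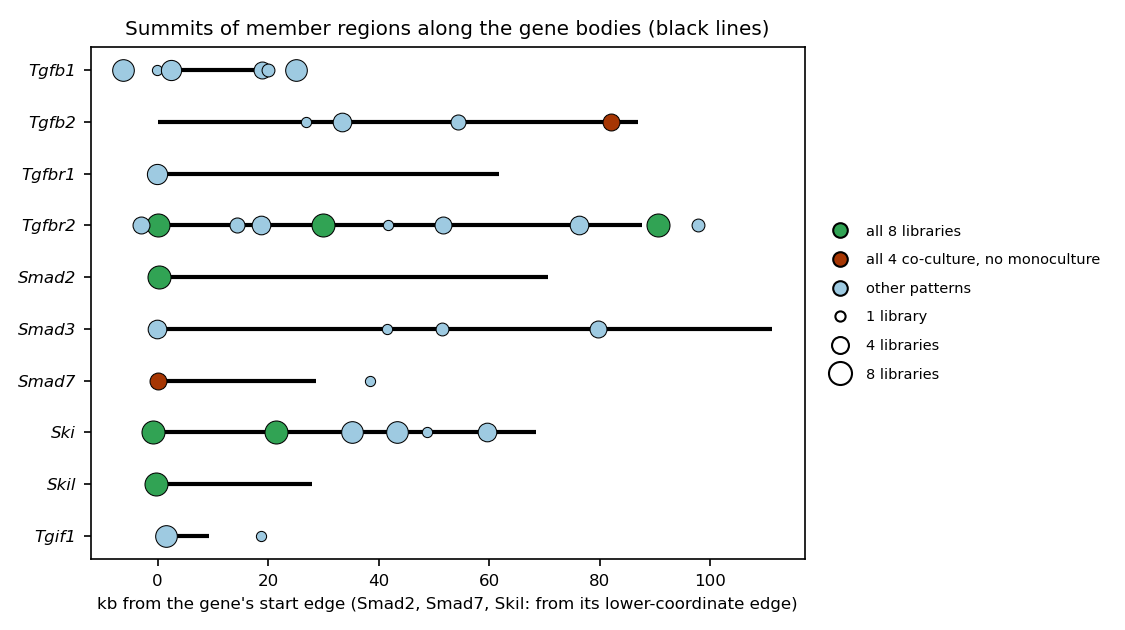
Summit of each member region (circles) along its gene (black line), in kb from the gene's start edge, or from the lower-coordinate edge for Smad2, Smad7 and Skil. Circle area grows with the number of libraries with a peak, green marks all 8 libraries and brown all 4 co-culture and no monoculture library. Green circles lie at or near an edge of Tgfbr2, Smad2, Ski and Skil, inside Tgfbr2 and Ski, and beyond the far edge of Tgfbr2, and the 2 brown circles lie near the far edge of Tgfb2 and at the edge of Smad7.

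Peaks within 10 kb were counted for every gene with at least 1 peak, 25997 genes, and compared by two-sided exact permutation tests with labels exchanged within the other factor. There are 36 relabellings, so the smallest p is 0.0556 and no gene can pass 0.05. For oxygen, 4.95% of genes reached that p, and for culture 4.62%. Among the members, Tgfbr2 and Smad3 did so for oxygen. Tgfbr2 had 7.25 ± 0.957 peaks in hypoxia and 4.75 ± 0.957 in normoxia (SD, n = 4 each), a difference of 2.50 (exact permutation p = 0.0556, adjusted over all genes 0.897). Counted within 2 kb it was 1.5 (exact permutation p = 0.167). Smad3 had 2.50 ± 1.00 and 0.5 ± 0.577, a difference of 2.00 with the same exact p and adjusted p.

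For culture, Tgfb2 and Smad7 reached the smallest p. Tgfb2 had 2.75 ± 0.5 peaks in co-culture and 0.5 ± 0.577 in monoculture (SD, n = 4 each), a difference of 2.25 (exact permutation p = 0.0556, adjusted 1). Smad7 had 1.5 ± 0.577 in co-culture and 0 in each monoculture library, a difference of 1.5 with the same exact p and adjusted p. Of 25997 genes, 0 had an unadjusted exact p below 0.05 for either factor, as the design requires. Over all genes the median difference was 0.25 peaks for oxygen and 0.25 for culture, 69.2% of genes had more peaks in hypoxia, and 64.2% had more in co-culture. Member differences have to be read against that shift.

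The remaining members had smaller differences. For oxygen, the differences were 1.25 at Tgfb1, 0.75 at Tgfb2, 0.5 at Tgfbr1 and Ski, and 0 at Smad2, Smad7, Skil and Tgif1. For culture, Tgfb1 had 1.25 more peaks in co-culture, Smad3 and Ski 1.00, Tgfbr1 and Tgif1 0.5, and Smad2 and Skil 0. Tgfbr2 was the single member with fewer peaks in co-culture, 5.5 ± 1.29 against 6.50 ± 1.91 (SD, n = 4 each; exact permutation p = 0.278, adjusted 1). In lists of equal number the oxygen difference was 0 at Tgfbr2 and 0.25 at Smad3, and the culture difference was 0.5 at Tgfb2, 0 at Smad7 and −2.50 at Tgfbr2, the last with the smallest exact permutation p, 0.0556. Cutting lists to 1 length removes peaks from the longer lists by construction. The share of all genes at that p in those lists is not given here.

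**Figure D4:**
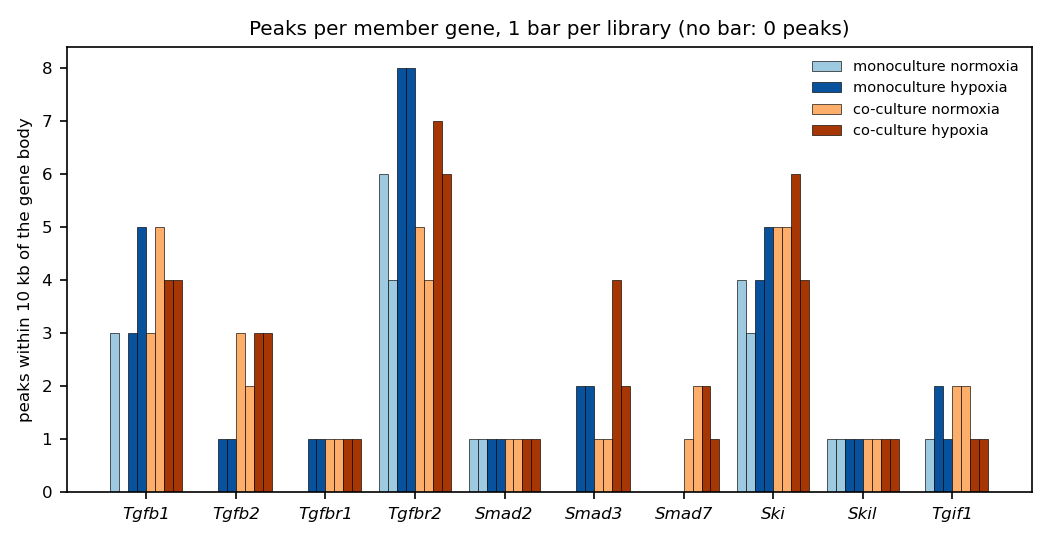
Number of peaks within 10 kb of each member gene, 1 bar for each of the 8 libraries, coloured by group, with no bar where a library had 0. Smad2 and Skil had 1 peak in every library, Tgfbr2 had 4 to 8, and Smad7 had 1 or 2 in co-culture and 0 in monoculture.

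The co-culture gains at Tgfb2, Smad7, Tgfbr2 region 1 and Smad3 region 2 are set here beside markers of the other cell line. Of 12 glioma and glial marker genes, 0 had a peak within 10 kb in either normoxic monoculture library and 1 or 2 in hypoxic monoculture, against 3 to 6 in normoxic co-culture and 5 to 7 in hypoxic co-culture. Their 17 regions had 0 to 2 peaks per monoculture library and 4 to 15 per co-culture library. Of all regions, 30.8% and 23.1% had a peak in normoxic monoculture, 57.3% and 62.3% in hypoxic monoculture and 51.5% to 70.7% in co-culture. Olig2, Sox9, Egfr and Ptprz1, markers of glial cells and glioma, had none in any library, while Sox2, Nes and Pdgfra each had peaks in 3 co-culture libraries and in no monoculture library. None of these 17 regions was gained in all 4 co-culture libraries. The part of glioma DNA in the member regions was not tested, and a response of BV2 and a share of GL261 cells in the sorted sample cannot be told apart here. Fewer open cells and weaker opening per cell cannot be told apart either.

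Other genes of the pathway were taken as 5 whole lists of 53 genes, of which 48 had a region within 10 kb, 141 regions when summed over the lists. With hypoxia in monoculture 28 were gained (19.9%, against 17.7% of all regions) and 0 lost. Hypoxia in co-culture gained 6 (4.26%) and lost 3. Co-culture gained 19 in normoxia (13.5%) and lost 0, and gained 9 in hypoxia (6.38%) and lost 6. These shares lie near the background of all regions given above. By list, hypoxia in monoculture gained 5 of 29 regions of ligands and the latent complex, 6 of 35 of receptors, 6 of 25 of Smads and their modifiers, 7 of 25 of nuclear partners and 4 of 27 of transcribed targets.

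Co-culture at both oxygen levels gained 3 regions of these lists (2.13%, against 1.98% of all regions), a share at the background. One lies within 10 kb of Thbs1, which encodes thrombospondin 1, an activator of latent TGF-beta (chr2:118110818-118111824, percentiles from 41.1 to 52.8). Another lies within 10 kb of Itgb8, the beta subunit of an integrin that activates latent TGF-beta (chr12:119238479-119238972, from 11.9 to 37.7). The third lies inside Acvr1, a type I receptor of the family (chr2:58505448-58506151, from 13.5 to 53.0). Hypoxia in both cultures gained 1 region (0.709%, against 2.08% of all regions), inside Ldlrad4, whose product dampens Smad signalling (chr18:68128433-68128933, from 8.01 to 42.7). None was lost.

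The window of 10 kb sets which regions count. Just inside it lay Tgfbr2 region 1, 9910 bp from the gene body, Smad7 region 2 at 9714 bp and Tgif1 region 1 at 9291 bp, with peaks in 2, 1 and 1 libraries. Just outside lay regions 10615 bp from Skil, with a peak in 7 libraries (23.2 to 58.4), 11027 bp from Tgif1 in 7 (57.05 to 89.4), 11630 bp from Ski in 8 (40.2 to 78.6) and 12166 bp from Tgfb2 in 8 (59.3 to 87.1). For Tgif1 the region just outside was called in more libraries, and at higher percentiles, than the one just inside.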

How the data were processed

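ATAC-seq was carried out on 8 libraries, and 1 peak list per library was used. Per the submitters' processing notes, Trimmomatic 0.36, HISAT2 2.1.0, Picard, SAMtools, deepTools and MACS2 2.1.1.2 were used on mm10 (GRCm38), with roles and filters not given in the sources used here. Each deposited list gives a fold (a ratio of summit to local background), a −log10 p, a −log10 q, a score (10-fold the −log10 q without its decimals, for nearly all peaks) and a summit offset. All are the authors' values for their own library, so they rank peaks within a list only. Peaks overlapping by 1 bp were merged over libraries, and members are regions within 10 kb of a gene body in a RefSeq table of GRCm38.p6, which gives no exons. Fragments were estimated from the deposited fold, taken as (n + 1)/(b + 1), and the −log10 p, taken as a Poisson tail, and 99.8% to 99.9% of peaks were solved to within 0.001. Peaks with a −log10 p above 250 were not solved. Lists of equal number hold the 9910 highest peaks of each library. Thinning scaled n and b to 0.758 fragments and kept peaks with a −log10 p of at least 4.19.

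Single values per library were compared by exact permutation tests, with Benjamini-Hochberg adjustment over all genes, and scripts were tested on simulated data. The members and lists were chosen with earlier results of these data known. All 10 members are named. Regions named by rule are the highest-ranked of each gene by lowest percentile, those separating 4 libraries from 4, and the leading 5 per comparison and direction, and the remaining regions are given for completeness. Alternatives were equal-number lists, equal coverage, a −log10 q of at least 5, a peak covering 25% of a region, windows of 250 bp on each side of summits, 2 kb, a replicate block and leaving out each library. Scripts ran on Python 3.11.15 with scipy 1.17.1, numpy 2.4.6, matplotlib 3.10.9 and pandas 2.3.3.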

Additional observations from a re-analysis of the deposited data

How the results depend on the processing

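Gains depended on list length. With every list cut to 9910 peaks, hypoxia in monoculture gained 1 member region and not 8, hypoxia in co-culture gained 0 and lost 3, co-culture gained 3 in normoxia and 0 in hypoxia, and co-culture at both oxygen levels gained 0. The summed oxygen difference over the 10 genes turned from 7.5 to −0.25 peaks and the culture difference from 7 to −1.75, the oxygen difference of Tgfb2 to −0.5 and of Ski to −0.25, and the culture difference of Ski to −0.75 and of Tgif1 to −0.25. Cutting lists to 1 length removes peaks from the longer lists by construction. Thinned to equal background coverage, at −log10 q of at least 5, with 25% cover and at 2 kb, every count of gained and lost regions stayed within 1.5 times. With windows of 250 bp around summits, hypoxia in co-culture lost 3, co-culture in hypoxia lost 2, and co-culture at both oxygen levels gained 1.

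Leaving out 1 library loosens the rule by construction. Hypoxia in monoculture then gained 9 to 13 regions (13 without normoxic monoculture replicate 1) and lost 0 to 1 (1 without normoxic monoculture replicate 2 or hypoxic monoculture replicate 2). Hypoxia in co-culture gained 3 to 8 (8 without hypoxic co-culture replicate 2, 6 without normoxic co-culture replicate 2) and lost 1 to 2 (2 without either normoxic co-culture replicate or hypoxic co-culture replicate 1). Co-culture gained 6 to 9 in normoxia (9 without normoxic monoculture replicate 1 or either normoxic co-culture replicate) and lost 0 to 3 (3 without normoxic monoculture replicate 2, 1 without replicate 1). In hypoxia it gained 5 to 8 (8 without hypoxic co-culture replicate 2) and lost 2 to 5 (5 without hypoxic co-culture replicate 1, 2 without any other). Hypoxia in both cultures gained 0 to 1 (1 without normoxic monoculture replicate 2, hypoxic co-culture replicate 2 or either normoxic co-culture replicate) and lost 0, and co-culture at both oxygen levels gained 2 to 3 and lost 0. The summed differences ranged from 6 to 9 peaks for oxygen and 5.5 to 8.5 for culture.

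Replicate numbers are not stated to pair samples, and deviations of same-numbered libraries correlated from −0.0371 to 0.138 over 25997 genes. With the replicate block, the summed differences stayed at 7.5 and 7, the smallest exact permutation p was 0.125 over 16 relabellings, and 0 genes passed after adjustment.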
